A study of Mus musculus with 32 samples.

Results

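The regions described here are C/EBPβ peaks that appeared in mouse liver after dexamethasone at places where no glucocorticoid receptor (GR) peak was found. They were chosen from the lists the authors deposited: a member is an interval of the dexamethasone C/EBPβ list whose identifier is missing from the vehicle C/EBPβ list and which shares no base with any GR peak. The rule was met by 3682 peaks, of 5079 C/EBPβ peaks gained with hormone and of 27793 C/EBPβ peaks found in either list. They made up 14.5% of the 25392 peaks in the dexamethasone C/EBPβ list. Absence from the vehicle list and absence of a GR peak chose the members, so neither is a result. In the text they are called gained GR-free peaks.

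The livers came from male C57BL/6 mice, 8 weeks of age, whose adrenal glands had been removed on both sides. The treated animals received dexamethasone, a synthetic GR ligand, at 1 mg/kg as a cyclodextrin complex by intraperitoneal injection. Vehicle animals received cyclodextrin alone, and treatment lasted 1 h according to the series' design text. All groups used here were adrenalectomized, which takes away most endogenous glucocorticoid, in vehicle animals too. C/EBPβ and DNase were profiled in 2 dexamethasone and 2 vehicle samples each, and GR ChIP-seq has 2 samples per treatment, although the GR list names no treatment. Each assay and condition is represented by 1 interval list without heights, counts or replicate columns. Read depth is unknown, no difference between conditions has a replicate check, and how far a gained peak rose cannot be stated. The labels give liver as the tissue, and its cell types were not resolved. The samples given adenovirus, polymerase II samples and inputs were not analysed here.

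C/EBPβ is a basic leucine zipper transcription factor that is abundant in hepatocytes, where it shares its DNA recognition with C/EBPα and takes part in metabolic and acute-phase gene control. It binds DNA as a dimer, often at enhancers that are already nucleosome-depleted. GR is a nuclear receptor that moves to the nucleus on ligand binding and can bind DNA directly or be held there through other factors. DNase I hypersensitive sites (DHS) are stretches where chromatin is open enough to be cut readily, and they mark most active promoters and enhancers.

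Gained GR-free peaks were set against 3 other classes of C/EBPβ peak. Of the GR-free peaks present in both lists (stable), there were 14452, and of the GR-free peaks present in the vehicle list alone (lost), there were 2364. The GR-bound gained peaks numbered 1397. Stable peaks had to be called in both C/EBPβ lists, gained and lost peaks in a single list, and no heights are given. A difference in peak strength between these classes therefore cannot be told apart from the differences given below. All gained and lost intervals were 150 bp wide, while stable GR-free ones ranged from 150 to 344 bp with a median of 155 bp. The DNase lists took no part in choosing the members, so accessibility could be tested. Tests are two-sided Fisher's exact tests between classes of peaks, with Benjamini-Hochberg adjustment over 20 tests. Intervals after shares are 95% Wilson intervals, and those after differences are 95% Newcombe intervals. They cover counting error only. A p-value here sets one class of peaks against another and does not test the treatment. Neighbouring peaks are not independent, so the number of chromosomes showing a direction is given beside each test.

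The GR limit of the rule was sharp in base pairs. At the inner edge lay 104 members within 150 bp of a GR peak, and 1 of these abutted it. The member at chr19:46674498-46674648 (mm9, as all positions here) had a gap of 0 bp, and those at chr9:61162605-61162755 and chr14:48123969-48124119 had gaps of 3 bp. The members at chr6:58974270-58974420 and chr12:36190940-36191090 followed, with gaps of 5 and 7 bp. At the outer edge, the GR-bound gained peaks at chr8:82164030-82164180 and chr16:7094470-7094620 shared 1 bp with a GR peak. Those at chr8:86104899-86105049, chr8:81181092-81181242 and chr5:120589457-120589607 shared 2, 3 and 4 bp. All 10 of these borderline peaks lay in DHS of both DNase lists, as did 64.7% of all members and 69.1% of all GR-bound gained peaks. The 10 were named by gap or overlap alone, and this count was not tested. Few peaks were of this kind: 38 of the 1397 GR-bound gained peaks shared at most 30 bp with the GR interval, and the median overlap was 128 bp (quartiles 107 and 140 bp).

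Most gained GR-free peaks lay in chromatin that was open with and without hormone, but so did most peaks of each comparison class. More members lay in DHS of the dexamethasone list alone than in DHS of the vehicle list alone. Of the 3682 members, 2381 (64.7%, 63.1 to 66.2) overlapped DHS of both DNase lists. A further 487 (13.2%, 12.2 to 14.4) overlapped a DHS of the dexamethasone list alone, and 80 (2.17%, 1.75 to 2.70) a DHS of the vehicle list alone. The remaining 734 (19.9%, 18.7 to 21.3) lay outside every DHS. DHS of both lists held 74.9% of stable, 52.8% of lost and 69.1% of GR-bound gained peaks. Among all C/EBPβ peaks, 80.1% overlapped a vehicle DHS and 83.3% a dexamethasone DHS. Of the 487, 421 sat in a DHS without any overlap with the vehicle DHS list (a dex-only DHS), and 66 lay in a shared DHS beyond the end of its vehicle interval. The dexamethasone list also held more list-specific DHS, 15076 against 8488 in the vehicle list. Stable peaks leaned the same way as members (5.93% and 4.52%), and lost peaks the other way (3.60% and 15.4%).

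**Figure D1:**
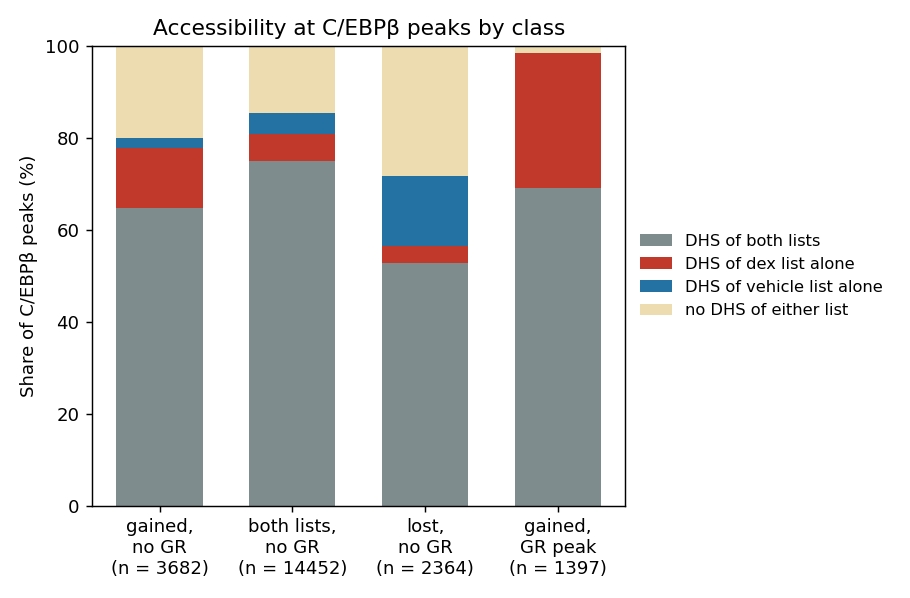
Share of C/EBPβ peaks (y axis, %) that overlapped DHS of both lists, of the dexamethasone list alone, of the vehicle list alone or of neither list, for 4 classes of peak. The dexamethasone-alone part is 13.2% in gained GR-free peaks, against 5.93% in stable and 3.60% in lost ones, and the vehicle-alone part is 2.17% against 4.52% and 15.4%.

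Dex-only DHS were more frequent at gained GR-free peaks than at the other GR-free classes. They held 421 of 3682 gained GR-free peaks (11.4%), against 782 of 14452 stable ones (5.41%) and 76 of 2364 lost ones (3.21%). Among all 27793 C/EBPβ peaks the share was 6.4%. The difference was 6.02 percentage points from stable peaks (4.96 to 7.15; Fisher p = 8.99e-35, adjusted p = 2.57e-34) and 8.22 points from lost peaks (6.95 to 9.46; Fisher p = 2.80e-33, adjusted p = 7.01e-33). Gained GR-free peaks had the higher share on 20 of 20 chromosomes in both comparisons. The dexamethasone DHS list was the longer one, with 63473 intervals against 56794 in the vehicle list. With both lists brought to the same length by leaving out the narrowest intervals of the longer one, dex-only DHS held 10.3% of gained GR-free, 4.52% of stable and 2.20% of lost peaks. With DHS above the median width of their list only, list-specific sites were defined anew. A dex-only DHS in this setting may overlap a narrower vehicle DHS. The shares were then 12.5% of gained GR-free and 8.86% of stable peaks, and the difference of 3.69 points passed the threshold (Fisher p = 4.31e-11, adjusted p = 6.15e-11). On single chromosomes, with all DHS counted, the share of gained GR-free peaks ran between 6.51% and 16.2%, with a median of 11.7%. That of stable peaks ran between 4.27% and 8.01%. The ranges thus overlapped across chromosomes, although within each chromosome the order was the same.

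Vehicle-only DHS, which share no base with any dexamethasone DHS, showed the opposite order. They held 60 gained GR-free peaks (1.63%), against 596 stable ones (4.12%) and 332 lost ones (14.0%). The share among all C/EBPβ peaks was 3.58%. The differences were -2.49 points from stable peaks (-2.99 to -1.94; Fisher p = 4.46e-15, adjusted p = 8.92e-15) and -12.4 points from lost peaks (-13.9 to -10.99; Fisher p = 1.44e-82, adjusted p = 9.72e-82). The share was lower at gained GR-free peaks on 20 of 20 chromosomes in each case. Relative to other GR-free C/EBPβ peaks, gained and lost peaks thus each leaned towards DHS of the list in which the C/EBPβ peak was found. Seen from the DHS lists, with all widths pooled, the order differed between gained and lost peaks. Of DHS without GR, a gained peak lay in 2.93% of dex-only and 5.41% of shared dexamethasone sites. A lost peak lay in 3.91% of vehicle-only and 3.08% of shared vehicle sites. These shares pool sites of unlike widths and were not tested. By decile of width, dex-only sites held a gained peak more often than shared ones in 7 of 10 deciles. The lost side was not broken down by width, so whether the pooled order holds at like widths was not tested.

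**Figure D2:**
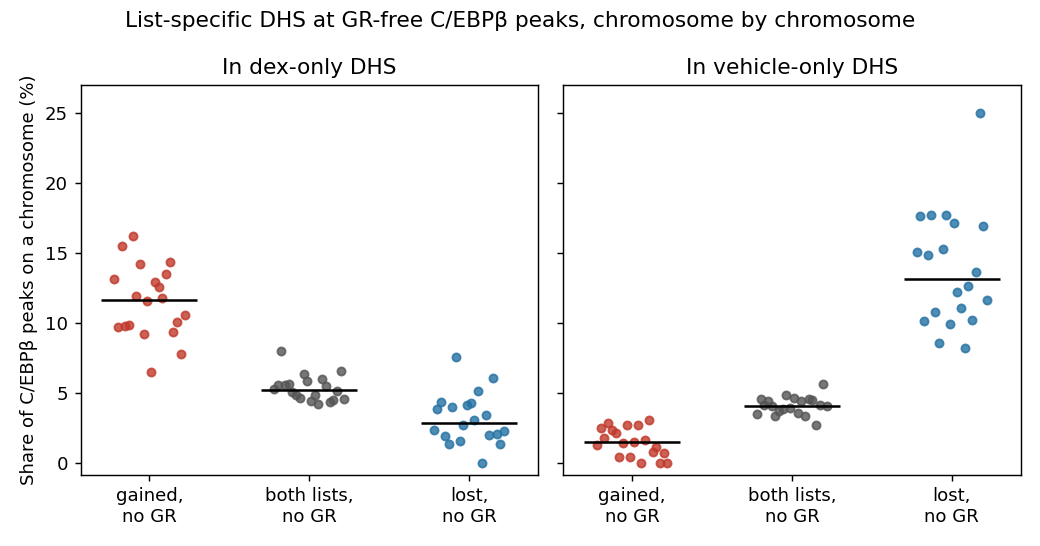
Each point is 1 of 20 chromosomes, and the y axis is the share (%) of a class of GR-free C/EBPβ peaks that lay in dex-only DHS (left) or vehicle-only DHS (right). Black lines are medians over chromosomes. The medians for gained, stable and lost peaks are 11.7%, 5.22% and 2.89% in dex-only DHS, and 1.50%, 4.13% and 13.1% in vehicle-only DHS.

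The starting accessibility of gained GR-free peaks was below that of stable peaks. A vehicle DHS overlapped 2461 of them (66.8%, 65.3 to 68.3), against 79.5% of stable peaks. Among all C/EBPβ peaks it was 80.1%. The difference of -12.6 points (-14.3 to -11.0; Fisher p = 8.92e-56, adjusted p = 3.57e-55) had the same sign on 20 of 20 chromosomes. Stable peaks had to be in both C/EBPβ lists, so a difference in peak strength cannot be told apart from it. Against lost peaks, of which 68.2% lay in vehicle DHS, the difference was -1.35 points (-3.75 to 1.08) and missed the threshold of 0.05 (Fisher p = 0.286, adjusted p = 0.301), with members lower on 10 of 20 chromosomes. The vehicle DHS share of GR-bound gained peaks was 69.1%, and that difference, -2.31 points (-5.13 to 0.583), missed it too (Fisher p = 0.123, adjusted p = 0.137), with members lower on 12 of 20 chromosomes. When only DHS wider than the median of their list were counted, the shares in vehicle DHS were 48.8% for gained GR-free, 50.5% for stable and 33.8% for lost peaks. The difference from stable peaks then no longer passed the threshold (-1.75 points, Fisher p = 0.0597, adjusted p = 0.0663). The difference from lost peaks had the other sign in this setting and passed the threshold (15.0 points, Fisher p = 6.90e-31, adjusted p = 1.53e-30).

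After dexamethasone the gap to stable peaks was small. A dexamethasone DHS overlapped 2868 gained GR-free peaks (77.9%), against 80.9% of stable and 56.4% of lost peaks, with 83.3% among all C/EBPβ peaks. The difference from stable peaks was -2.98 points (-4.49 to -1.52; Fisher p = 5.97e-05, adjusted p = 7.02e-05), with the same sign on 18 of 20 chromosomes. It turned to 7.87 points when only the broader DHS were counted (Fisher p = 1.26e-17, adjusted p = 2.30e-17), and was -0.95 points when a gap of 500 bp was allowed (Fisher p = 0.175, adjusted p = 0.206). The difference from lost peaks was 21.5 points (19.1 to 23.9; Fisher p = 2.46e-69, adjusted p = 1.23e-68), on 20 of 20 chromosomes.

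Members outside every DHS were a sizeable minority. The 734 members in no DHS (19.9%) compare with 14.6% of stable and 28.2% of lost peaks, and with 12.8% of all C/EBPβ peaks. The difference was 5.33 points from stable peaks (3.94 to 6.77; Fisher p = 1.06e-14, adjusted p = 1.92e-14) and -8.28 points from lost peaks (-10.5 to -6.07; Fisher p = 1.52e-13, adjusted p = 2.34e-13). Members had the higher share than stable peaks on 19 of 20 chromosomes and the lower share than lost peaks on 19 of 20. The limit on stable peaks, which had to be in both C/EBPβ lists, applies here too. With DHS above the median width only, the difference from stable peaks had the other sign (-2.66 points, Fisher p = 0.00321, adjusted p = 0.00378).

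GR-bound gained peaks differed from the members in the accessibility after hormone. A dexamethasone DHS overlapped 77.9% of gained GR-free and 98.5% of GR-bound gained peaks, and a dex-only DHS 11.4% and 25.5%. The differences were -20.6 points (-22.1 to -19.1; Fisher p = 2.49e-95, adjusted p = 4.97e-94) and -14.0 points (-16.6 to -11.6; Fisher p = 9.07e-33, adjusted p = 2.02e-32), on 20 of 20 chromosomes each. No vehicle-only DHS held a GR-bound gained peak (60 of 3682 against 0 of 1397). Most of the GR list itself lay in dexamethasone DHS (11270 of 11666 peaks, 96.6%), and that list split these classes. The high dexamethasone DHS share of GR-bound gained peaks, and their absence from vehicle-only DHS, were thus largely set by how the classes were chosen. The dex-only shares rest on the same split. These p-values belong to the family of 20 tests and are not support for a difference.

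The lists give no signal per site, and the width of each DHS was compared between them. DHS that overlapped a single DHS of the other list, and were overlapped by it alone, gave 36267 matched pairs without a GR peak. Among them, 1837 held a gained C/EBPβ peak and no other, and these were more often wider in the dexamethasone list. The median widths of these 1837 were 720 bp with dexamethasone and 700 bp with vehicle, a median log2 ratio of 0.03 (quartiles -0.09 and 0.19). Those with a stable peak only had medians of 628 and 638 bp and a log2 ratio of -0.02. Those with a lost peak only had 551 and 603 bp and a log2 ratio of -0.13, and those without C/EBPβ had 586 and 590 bp and a log2 ratio of -0.01. The shift at gained peaks was thus small relative to its spread between sites.

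A matched DHS was wider in the dexamethasone list in 1010 of 1837 cases with a gained peak (55.0%, 52.7 to 57.2), against 45.5% with a stable peak, 28.9% with a lost peak and 47.3% with none. Over all 36267 pairs it was 46.7%. The differences were 9.48 points from stable (6.97 to 12.0; Fisher p = 1.51e-13, adjusted p = 2.34e-13), 26.1 points from lost (22.5 to 29.6; Fisher p = 7.99e-43, adjusted p = 2.66e-42) and 7.65 points from C/EBPβ-free sites (5.29 to 10.001; Fisher p = 2.47e-10, adjusted p = 3.30e-10). Their sign was the same on 20, 20 and 19 of 20 chromosomes. Sites that were narrow in the vehicle list were more often wider in the dexamethasone list, in every class. Vehicle width is also part of this comparison, so sorting by it favours that pattern by itself. Without replicates, a hormone effect cannot be told apart from it. Strata by vehicle width share this limit. Without strata the odds ratios were 1.46 against stable, 3.01 against lost and 1.36 against C/EBPβ-free sites. Within 10 strata of vehicle width the odds ratios were 1.69 against stable (1.52 to 1.88), 4.37 against lost (3.63 to 5.26) and 1.82 against C/EBPβ-free sites (1.65 to 2.02).

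**Figure D3:**
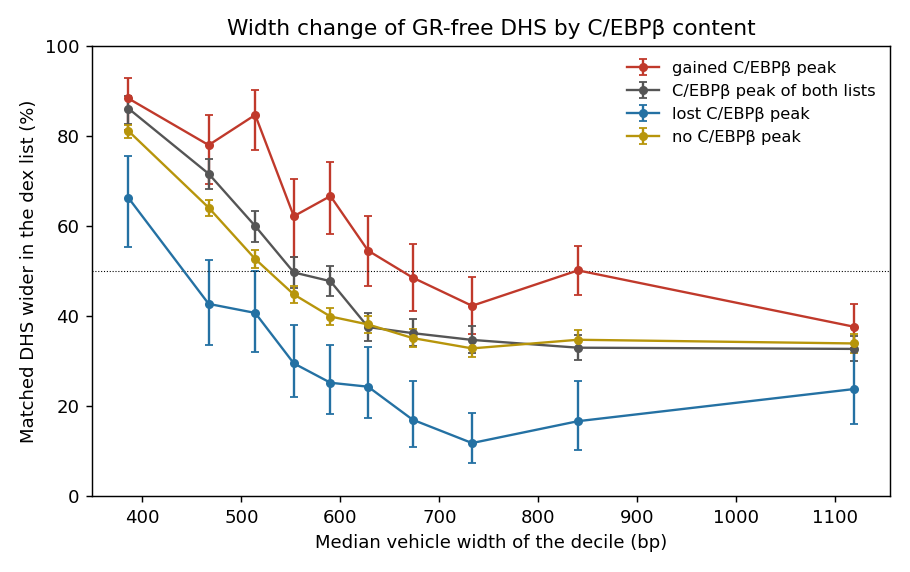
Share of matched GR-free DHS that were wider in the dexamethasone list (y axis, %), in 10 deciles of vehicle width (x axis, median width in bp), by the C/EBPβ peaks they held. Bars are 95% Wilson intervals. The share for DHS with a gained peak was above the other 3 kinds in all 10 deciles, for example 66.7% against 47.8% (stable), 25.2% (lost) and 39.9% (none) in the fifth.

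Gained GR-free peaks occupied broader accessible sites than stable and lost GR-free peaks, but not than GR-bound gained peaks in the dexamethasone list. Where a member lay in DHS of both lists (2381 peaks), the median width of that DHS was 779 bp with dexamethasone and 742 bp with vehicle. For stable peaks these medians were 662 and 670 bp, for lost peaks 568.5 and 631 bp, and for GR-bound gained peaks 874.5 and 675 bp. Of the members in a vehicle DHS, 1796 of 2461 (73.0%, 71.2 to 74.7) were in a DHS wider than the median of that list, 596 bp. The share was 63.6% for stable (62.7 to 64.5), 49.5% for lost (47.1 to 51.9) and 68.6% for GR-bound gained peaks (65.6 to 71.5). In the dexamethasone list, where the median is 591 bp, the share was 75.3% for members, 62.8% for stable, 42.8% for lost and 87.0% for GR-bound gained peaks. These width shares were chosen after other results were seen and were not tested. Peaks in a DHS of the dexamethasone list alone sat in narrower sites in every class. The medians were 561 bp for members, 498 bp for stable, 449 bp for lost and 680 bp for GR-bound gained peaks.

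Within their site, members lay somewhat farther from the middle. For the 2827 members whose centre fell in a dexamethasone DHS, the median distance from the DHS centre was 81 bp (quartiles 35 and 175 bp). It was 53.5 bp for stable and 49.5 bp for lost peaks. The DHS differed in width, with medians of 742 bp for members, 650 bp for stable and 561.5 bp for lost peaks. As a percentage of the distance from DHS centre to edge, the median offsets were 23.2%, 17.2% and 19.0%. The central 50% of the DHS held 2392 of the 2827 (84.6%, 83.2 to 85.9), against 89.2% of stable and 85.7% of lost peaks, and 89.6% of all C/EBPβ peaks in dexamethasone DHS. The difference from stable peaks was -4.59 points (-6.07 to -3.18; Fisher p = 3.89e-11, adjusted p = 5.56e-11), with members lower on 17 of 20 chromosomes. The difference from lost peaks, -1.06 points (-3.32 to 1.33), missed the threshold (Fisher p = 0.399, adjusted p = 0.399), with members lower on 13 of 20 chromosomes. It depended on the site definition, at -7.16 points for the central 25% and 3.88 points in DHS above the median width.

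Members shared their accessible site with another peak in a minority of cases, and that minority was larger than in the other GR-free classes. Of the 2868 members in a dexamethasone DHS, 2320 (80.9%, 79.4 to 82.3) were in a DHS with no GR peak and no other dexamethasone C/EBPβ peak, against 84.4% of stable and 90.2% of lost peaks. A GR peak that did not touch the member lay in the same DHS for 283 (9.87%, 8.83 to 11.01), compared with 8.26% of stable and 3.38% of lost peaks. A C/EBPβ peak of both lists, with or without GR, lay in the same DHS for 256 (8.93%), against 10.9% of stable and 7.43% of lost peaks, and another gained C/EBPβ peak for 190 (6.62%, 5.77 to 7.59). Another gained peak shared the DHS with 2.52% of stable and 1.28% of lost peaks. These counts rest on the C/EBPβ and GR lists that the rule used, and are given without a test. They were also not adjusted for DHS width, and a broader DHS has room for more peaks. For peaks centred in a dexamethasone DHS, its median width was 742 bp for members, 650 bp for stable and 561.5 bp for lost peaks. Leaving out members with a GR peak anywhere in a DHS they overlapped kept 3395. Dex-only DHS then held 11.6% of gained, 5.66% of stable and 3.24% of lost peaks.

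Although no GR peak touched them, gained GR-free peaks lay closer to GR peaks than lost ones did. The gap to the nearest GR peak had a median of 25182 bp (quartiles 4268 and 86847 bp) for members, 29664 bp for stable and 55538 bp for lost peaks. Within 10 kb of a GR peak were 1316 members (35.7%, 34.2 to 37.3), against 31.5% of stable and 21.3% of lost peaks. Within 1 kb were 408 members (11.1%), against 9.06% and 3.89%. At the other end, 826 members (22.4%) were over 100 kb from any GR peak. The GR list was part of the rule, so these distances are a description.

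**Figure D4:**
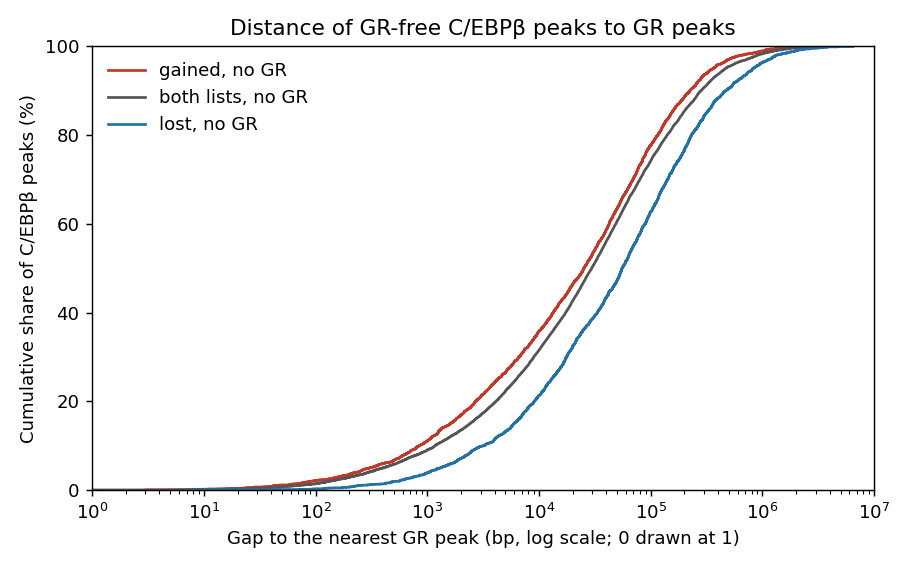
Cumulative share of GR-free C/EBPβ peaks (y axis, %) by the gap to the nearest GR peak (x axis, bp, log scale). The curve for gained peaks lies to the left of that for stable peaks, and the curve for lost peaks lies farthest right, with medians of 25182, 29664 and 55538 bp.

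The share of members in dex-only DHS varied with the distance to GR. It was 14.0% of the 408 members up to 1 kb from a GR peak (10.9 to 17.7) and 15.7% of the 908 at 1 to 10 kb (13.5 to 18.3). It was 10.5% of the 1540 at 10 to 100 kb (9.02 to 12.1) and 7.26% of the 826 farther away (5.68 to 9.24). Stable peaks had 3.97%, 6.41%, 5.59% and 4.76% in the same bands, and lost peaks 6.52%, 3.40%, 2.97% and 3.06%. Members had the highest share of the 3 classes in each band. Over 100 kb from GR the intervals of members and stable peaks were close but did not overlap. That of the members began at 5.68% and that of stable peaks ended at 5.49%. Up to 1 kb, the interval for the 92 lost peaks (3.02 to 13.5) overlapped that of the members. The difference between bands was not tested.

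**Figure D5:**
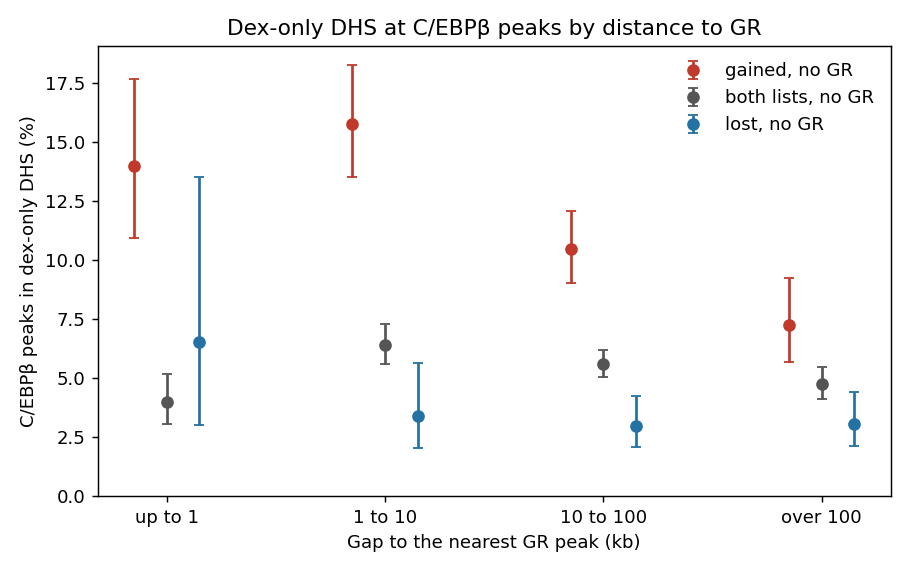
Share of GR-free C/EBPβ peaks in dex-only DHS (y axis, %) in 4 bands of distance to the nearest GR peak (x axis, kb), with 95% Wilson intervals. Gained peaks have shares of 14.0%, 15.7%, 10.5% and 7.26%, and stable peaks between 3.97% and 6.41%.

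Near GR, members differed from stable peaks mainly in the vehicle list. Up to 1 kb from a GR peak, 375 of 408 members lay in a dexamethasone DHS (91.9%, 88.9 to 94.2) and 291 in a vehicle DHS (71.3%, 66.8 to 75.5). For stable peaks in this band the shares were 93.9% and 89.6%. Over 100 kb away, 78.5% of members lay in a dexamethasone DHS and 72.6% in a vehicle DHS, against 82.1% and 82.0% of stable peaks. The dexamethasone and vehicle shares of the members were thus farther apart next to GR than far from it, and this was not tested.

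The spacing of members along the genome is given as a description. The nearest C/EBPβ peak of both lists, with or without GR, was a median of 12865 bp away (quartiles 2975 and 41005 bp) and the nearest other member 86574 bp away. A lost C/EBPβ peak lay within 500 bp of 20 members (0.543%, 0.352 to 0.838). Windows of 100 kb with a member numbered 2910, and 2299 of them held 1. The 131 windows with 3 or more held 423 members. Each chromosome except Y had members, at 11.1% of its C/EBPβ peaks on chromosome 3 up to 17.4% on chromosome X, against 13.2% overall. On chromosome X this rests on 66 members among 380 peaks.

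The window with most members ran from 71000000 to 71100000 on chromosome 7 and held 6. They lay at chr7:71039719-71039869, chr7:71040402-71040552, chr7:71061348-71061498, chr7:71069924-71070074, chr7:71081291-71081441 and chr7:71082530-71082680. Both of the first pair fell in a single dexamethasone DHS of 1370 bp, where they overlapped vehicle DHS of 663 and 637 bp. The third lay 126 bp from a GR peak in a dex-only DHS of 834 bp. The last pair fell in a single vehicle DHS of 1965 bp that the dexamethasone list split into DHS of 749 and 1122 bp. The window also held 2 GR-bound gained, 4 stable (GR-bound ones included, as for the other windows) and 0 lost C/EBPβ peaks and 6 GR peaks.

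The other 4 windows named include both of those with 5 members and 2 of the 23 with 4, taken by their larger total of C/EBPβ peaks. On chromosome 5, 136100000 to 136200000 had 5 members, 10 stable C/EBPβ peaks and 9 GR peaks. In that window the members at chr5:136142874-136143024 and chr5:136157188-136157338 lay in dex-only DHS of 330 and 394 bp, the second 1114 bp from GR. The member at chr5:136158938-136159088, 336 bp from GR, lay in a DHS of 1099 bp with dexamethasone and 419 bp with vehicle. On chromosome 6, 31000000 to 31100000 had 5 members, 9 stable peaks and 8 GR peaks, with 2 members in no DHS. On chromosome 8, 129100000 to 129200000 had 4 members, 10 stable peaks and 9 GR peaks, with 2 members in no DHS. On chromosome 5, 120900000 to 121000000 had 4 members, 6 stable peaks and 7 GR peaks.

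No dexamethasone DHS held more than 2 members, and 64 held 2. Of these 64, 5 are named, taken by their total of C/EBPβ peaks and then by chromosome order, each with 2 members and 3 C/EBPβ peaks in all. Their widths with dexamethasone and vehicle were 1700 and 1704 bp at chr1:122016447-122018147, 2322 and 1345 bp at chr6:21898970-21901292, and 2245 and 744 bp at chr6:108085335-108087580. They were 1459 and 1379 bp at chr8:72240077-72241536, and 2362 and 2129 bp at chr10:17441258-17443620. The first 3 also held a GR peak and the last 2 held none. The pair on chromosome 6 were the ones much broader in the dexamethasone list. Both held a GR peak, but so did the site on chromosome 1, which was not broader. A single vehicle width is given per site, although a dexamethasone DHS can span several vehicle DHS, as in the chromosome 7 window above. Broadening thus cannot be told apart here from joining of neighbouring intervals. A link between width and GR was not tested on these 5 sites.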

How the data were processed

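GR, C/EBPβ and DNase libraries of mouse liver were used as 5 interval lists. Per the submitters' processing notes, CASAVA 1.8 and build mm9 were used. Aligner, peak caller, calling threshold and pooling: not given in the sources used here. The deposited values are positions and running identifiers with no other unit. Per-sample value columns left unused numbered 0. Intervals were taken as half-open, overlap meant at least 1 bp, and coordinates keep the deposited form. A stable peak has its identifier in both C/EBPβ lists. Fisher's exact tests shared 1 Benjamini-Hochberg adjustment, with a threshold of 0.05: 15 on DHS shares, 3 on width and 2 on position. Strata of width used Mantel-Haenszel odds ratios.

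Named were the 5 windows of 100 kb and the 5 dexamethasone DHS with most members, and 5 peaks on each side of the GR limit, ties going to more C/EBPβ peaks in all and then to chromosome and start, chromosomes 18 and Y left out. Members and comparisons were chosen with earlier results of these data known. Gene context and sequence were not analysed here, because the only gene table used is of another build, GRCm38.p6. Scripts were tested on simulated lists, and overlap counts equalled those of bedtools 2.31.1. Software was scipy 1.17.1, pandas 2.3.3, numpy 2.4.6 and matplotlib 3.10.9 under Python 3.11.15.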

Additional observations from a re-analysis of the deposited data

How the results depend on the processing

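Of 206 values under 22 alternative settings, 194 kept their direction and side of the threshold. With DHS above the median width, the differences in vehicle DHS were -1.75 points from stable peaks (no longer past the threshold), 15.0 from lost and 1.32 from GR-bound gained peaks, those in dexamethasone DHS 7.87 from stable peaks, in no DHS -2.66 from stable peaks, and in the central 50% of a DHS 3.88 from lost peaks, the last 5 with the other sign. This setting drops the narrower DHS by construction, so its list-specific sites may overlap a narrower DHS of the other list. With a gap of 500 bp allowed, the vehicle DHS difference from lost peaks was 0.74 (other sign) and the dexamethasone DHS difference from stable peaks -0.95 (past the threshold no longer). The vehicle DHS difference from GR-bound gained peaks passed the threshold with no GR peak within 1000 bp (-3.36) and none in the whole DHS (-3.49). The central share passed against lost peaks in vehicle DHS (-5.08) and for the central 25% (-7.16). The cause was not tested where none is given. The differences in dex-only DHS stayed between 3.69 and 6.45 points from stable and between 8.04 and 8.87 points from lost peaks. The value of 3.69 comes from DHS above the median width, where dex-only sites are defined otherwise. The differences in the share of wider DHS stayed between 8.85 and 16.8 points from stable peaks. The other settings were peak centres, 50% of the peak covered, intervals of 150 bp, lists of the same length, autosomes, closed intervals, width changes of 10% or more, C/EBPβ centres in the common part, and no DHS of the commonest repeated widths. Leaving out such DHS with chromosome Y for the shares, gained and lost peaks within 500 bp of each other, and DHS under 400 bp was chosen after seeing the data.

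No paired analysis was possible because each list stands for a whole condition and carries no replicate column. For the same reason no replicate was left out. Depth is unknown, and no list gives a peak's height.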

Other observations

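Seen from the accessible sites, a gained C/EBPβ peak was found in a smaller share of dex-only than of shared DHS when all widths were pooled. Of the dexamethasone DHS without a GR peak, 389 of 13288 dex-only ones (2.93%, 2.65 to 3.23) and 2142 of 39595 shared ones (5.41%, 5.19 to 5.64) held a gained C/EBPβ peak. The dex-only sites were narrower (median width 461 bp, and 600 bp for shared ones). By decile of width, dex-only sites held a gained peak more often in 7 of 10 deciles and less often in the 3 broadest, which was not tested. In the fourth decile (median 504 bp) it was 3.09% against 2.20%, and in the broadest (median 1075 bp) 9.22% of 141 against 13.3% of 5131. For lost peaks in vehicle DHS without GR the pooled order was the other way. A lost peak lay in 331 of 8475 vehicle-only sites (3.91%, 3.51 to 4.34) and 1221 of 39594 shared sites (3.08%, 2.92 to 3.26). These sites also differed in width (medians 453 and 607 bp), and the lost comparison was not broken down by width.

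Open sites particular to a list also lay at different distances from the members. The nearest dex-only DHS was a median of 19894 bp from gained GR-free peaks, 24835 bp from stable and 37313 bp from lost ones. The nearest vehicle-only DHS was 56300 bp from gained GR-free peaks, 45254 bp from stable and 32979 bp from lost ones. The nearest GR-bound gained C/EBPβ peak was within 10 kb of 276 gained GR-free peaks (7.50%, 6.69 to 8.39), of 4.90% of stable and of 1.90% of lost ones. These are descriptions and were not tested.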
